A study of Mus musculus with 4 samples.

Results

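Cyclic nucleotide phosphodiesterases were followed through single nuclei of the injured mouse heart by 10 genes: Pde1a, Pde1c, Pde3a, Pde3b, Pde4b, Pde4d, Pde5a, Pde7b, Pde8b and Pde10a. The members were taken by symbol, and each matched 1 of the 21884 genes counted. Pde10a was already known, from earlier results on these data, to differ between the groups in endocardial nuclei. The hearts came from male wild-type C57BL/6J mice that had all been injured on day 1 after birth and were taken 21 days after the injury, 1 whole heart per library. In 2 libraries the father of the mouse had also been injured, and in 2 the father had not. Every offspring carried an injury, so uninjured offspring are no part of the comparison. The fathers, their injury and the litters are not identified further in the sources used here, and p-values therefore measure the spread between these 4 hearts only.

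Phosphodiesterases end cyclic nucleotide signals by hydrolysing cAMP, cGMP or both, and families differ in which nucleotide they take and in how they are regulated. In the heart, cAMP drives the beta-adrenergic increase in contraction through protein kinase A, and cGMP relays nitric oxide and natriuretic peptide signals. Enzymes of the PDE1 family are switched on by calcium and calmodulin. Those of the PDE3 family take cAMP and are inhibited by cGMP, those of the PDE4, PDE7 and PDE8 families are specific for cAMP, and PDE5 is specific for cGMP. PDE10 takes both nucleotides and is best known from striatal neurons.

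After filtering, 33995 nuclei remained, 8251 and 9537 with injured and 9416 and 6791 with uninjured fathers. Their total counts ran from 15651493 to 32862239 UMIs (unique molecular identifiers, each standing for 1 captured RNA molecule) per library, with medians between 1860 and 2665 UMIs per nucleus. Uninjured-father library 2 was the shallowest and had the highest share of marked doublets, 14.9% against 9.62% to 9.93%. Between 22 and 31 nucleus barcodes were shared by any pair of libraries. Ttn, the giant sarcomere protein, stood between 16280 and 22010 CPM (UMIs of a gene per 1000000 UMIs) over all nuclei, while the lung marker Sftpc had at most 1 UMI in a library. Nuclei were sorted by marker genes into 14 classes named for the cell type they resemble, 9 of which held at least 50 nuclei in every library and were tested. Adipocyte-like nuclei made up 2.11% and 1.19% of the injured-father libraries and 0.170% and 0.103% of the uninjured-father libraries.

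Pde10a is the member on which the group comparison turns, so the sequences before its start sites are shown. The RefSeq (GRCm38.p6) windows used here cover 2 of them, both on the plus strand. In GENCODE M21 the gene begins at chr17:8525372, upstream of both, and no window before that start was read. In each line below the 250 bases before the start run 5′ to 3′, with each CG dinucleotide in capitals.
Pde10a, chr17:8801495-8801744: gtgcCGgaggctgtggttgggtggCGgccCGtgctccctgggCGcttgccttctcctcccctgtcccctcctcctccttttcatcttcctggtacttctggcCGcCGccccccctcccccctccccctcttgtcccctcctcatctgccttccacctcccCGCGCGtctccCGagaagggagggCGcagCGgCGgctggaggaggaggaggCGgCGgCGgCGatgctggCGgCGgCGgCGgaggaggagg
Pde10a, chr17:8849735-8849984: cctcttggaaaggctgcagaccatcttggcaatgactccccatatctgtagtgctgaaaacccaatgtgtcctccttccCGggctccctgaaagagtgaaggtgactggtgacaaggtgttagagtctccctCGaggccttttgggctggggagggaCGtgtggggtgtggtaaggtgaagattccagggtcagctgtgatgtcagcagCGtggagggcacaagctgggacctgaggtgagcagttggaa
The first window holds 21 CG dinucleotides at a GC content of 72.8%, and the second holds 4 at 56.0%. Over all 32851 RefSeq windows of 250 bases the median was 6, and 16.3% held 21 or more. The full cAMP response element, TGACGTCA, was searched on both strands and lies in neither window, and in 0 of the 21 windows found for 8 of the 10 members; 1.55% of all windows hold it. Its first 5 letters, TGACG, which the full element also contains, lie in at least 1 window of 2 of these 8 genes, Pde1a and Pde4b, and of 19.8% of all genes. The libraries read the 3′ end of transcripts, so the counts below do not tell which start was used.

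The members divided the heart's cell types between them. Levels are given as CPM of the summed counts of a class, as mean ± SD over the 4 libraries, and are compared between classes for 1 gene at a time, since they are not scaled to transcript length. These levels describe the classes and carry no test.

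**Figure D1:**
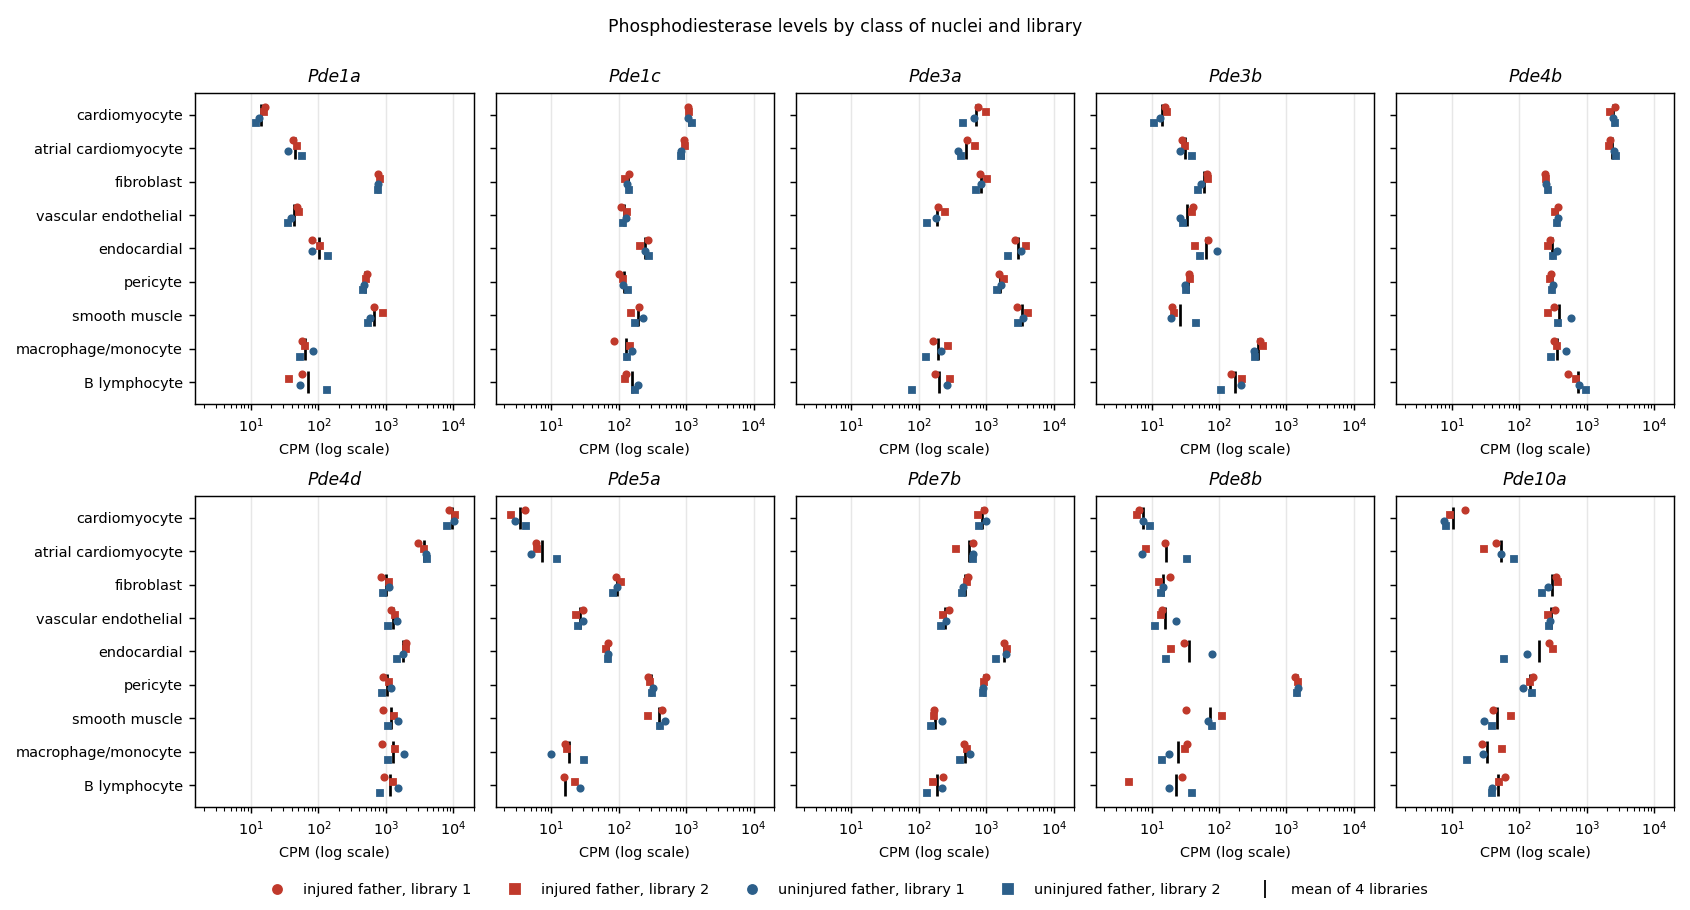
Level of each of the 10 genes in the 9 tested classes of nuclei (horizontal axis, CPM on a log scale), with 1 point per library, red for injured and blue for uninjured fathers, and a black bar at the mean. Pde1c, Pde4b and Pde4d are highest in the cardiomyocyte classes, Pde3a and Pde5a in smooth muscle-like nuclei and Pde8b in pericyte-like nuclei. The library with 0 UMIs of Pde5a in B lymphocyte-like nuclei has no point.

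Of the calcium-activated pair, Pde1a (ENSMUSG00000059173, chr2:79834453-80129458) prefers cGMP, and Pde1c (ENSMUSG00000004347, chr6:56069804-56569103) hydrolyses both nucleotides. Pde1a stood at 756 and 806 CPM with injured and 773 and 750.0 CPM with uninjured fathers in fibroblast-like nuclei, and its range there overlapped that of smooth muscle-like nuclei (670 ± 159 CPM). Pericyte-like nuclei followed at 488 ± 34.9 CPM, and cardiomyocyte-like nuclei were lowest at 14.2 ± 2.02 CPM. Pde1c was highest where Pde1a was lowest, at 1081 and 1114 against 1052 and 1213 CPM in cardiomyocyte-like nuclei. The 4 libraries of atrial cardiomyocyte-like nuclei all lay below these, between 832 and 975 CPM, and no other class exceeded 301 CPM in any library. The log2 ratio of Pde1a to Pde1c counts accordingly ran from -6.31 ± 0.27 in cardiomyocyte-like to 2.50 ± 0.14 in fibroblast-like nuclei (SD, n = 4), and was also positive in pericyte-like (2.05) and smooth muscle-like nuclei (1.80). Between groups, Pde1a in vascular endothelial-like nuclei stood at 48.8 and 51.4 against 38.7 and 35.1 CPM, with both injured-father libraries above both others. Its log2 fold change was 0.47 ± 0.16 (SE), with an unadjusted p of 0.0117 and an adjusted p of 0.788 (edgeR). Pde1c had log2 fold changes of -0.02 ± 0.13 in cardiomyocyte-like and -0.03 ± 0.13 in fibroblast-like nuclei, and was not called in any class.

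The cGMP-inhibited pair was high in different classes. Pde3a (ENSMUSG00000041741, chr6:141249269-141507448), the cardiac target of milrinone, was high in smooth muscle-like (3369 ± 574 CPM) and endocardial-like nuclei (2980 ± 754 CPM), whose ranges overlapped. It stood lower in pericyte-like nuclei (1613 ± 157 CPM), then in fibroblast-like (844 ± 138 CPM) and cardiomyocyte-like nuclei (713 ± 230 CPM), and lowest of the tested classes in vascular endothelial-like nuclei (189 ± 47.2 CPM). Endocardial and vascular endothelial nuclei both come from endothelial linings, and the lowest endocardial-like library (2123 CPM) was above the highest vascular endothelial-like one (248 CPM). Pde3b (ENSMUSG00000030671, chr7:114415281-114539251), through which insulin restrains fat breakdown, was highest in adipocyte-like nuclei, at 493 and 1482 against 1572 and 675 CPM. That class holds only 16 and 7 nuclei in the uninjured-father libraries, and its range overlapped that of T or NK lymphocyte-like nuclei (531 ± 47.5 CPM). Macrophage- or monocyte-like nuclei had 377 ± 53.2 CPM of Pde3b, B lymphocyte-like nuclei 172 ± 52.4 CPM and cardiomyocyte-like nuclei 14.2 ± 2.77 CPM. The log2 ratio of Pde3a to Pde3b was 7.07 ± 0.71 in smooth muscle-like nuclei, with 24 UMIs of Pde3b in all, 5.61 ± 0.21 in cardiomyocyte-like nuclei and -1.01 ± 0.40 in macrophage- or monocyte-like nuclei, where its sign was negative in each of the 4 libraries.

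Pde3a had higher values in both injured-father libraries in 3 classes, none of them past the threshold. In cardiomyocyte-like nuclei the libraries stood at 742 and 1007 against 648 and 454 CPM, so that the groups did not overlap. The log2 fold change was 0.68 ± 0.21, with an unadjusted p of 0.00863 and an adjusted p of 0.998 (edgeR). Atrial cardiomyocyte-like nuclei gave 516 and 672 against 385 and 423 CPM (0.62 ± 0.19, unadjusted p 0.00378, adjusted p 0.235, edgeR), and vascular endothelial-like nuclei 192 and 248 against 181 and 133 CPM (0.51 ± 0.17, unadjusted p 0.0104, adjusted p 0.772, edgeR). Uninjured-father library 2, the shallowest, was the lowest for Pde3a in cardiomyocyte-like, fibroblast-like, pericyte-like, endocardial-like and vascular endothelial-like nuclei alike, and the part of depth was not tested. Pde3b stood at 16.02 and 16.9 against 13.2 and 10.9 CPM in cardiomyocyte-like nuclei (0.46 ± 0.20, unadjusted p 0.0453, adjusted p 0.998, edgeR). It stood at 67.5 and 68.4 against 54.3 and 49.0 CPM in fibroblast-like nuclei (0.41 ± 0.14, unadjusted p 0.0165, adjusted p 1.0, edgeR) and at 40.6 and 39.6 against 26.1 and 29.7 CPM in vascular endothelial-like nuclei (0.57 ± 0.17, unadjusted p 0.0057, adjusted p 0.761, edgeR). The groups overlapped in none of these 3 classes, and none of the differences was called. Adipocyte markers summed to 20.6 and 17.02 against 10.93 and 8.705 CPM in fibroblast-like nuclei. In vascular endothelial-like nuclei they summed to 38.69 and 25.37 against 17.71 and 12.17 CPM, also higher with injured fathers. In cardiomyocyte-like nuclei they overlapped, at 93.77 and 179.8 against 115.4 and 167.9 CPM. The part of adipocyte RNA in these differences of Pde3b was not tested.

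Over all nuclei together Pde3b stood at 67.1 and 73.2 against 43.6 and 37.0 CPM. Both injured-father libraries were higher, with a log2 fold change of 0.77 ± 0.14, an unadjusted p of 0.000747 and an adjusted p of 0.204 (edgeR). The classes richest in Pde3b also took larger shares of the injured-father libraries: adipocyte-like nuclei as given above, and T or NK lymphocyte-like nuclei 2.15% and 0.818% against 0.648% and 0.265%. The part of these shares in the pooled difference was not tested. Leaving out the first injured-father library gave a pooled log2 fold change of 0.85 for Pde3b, and leaving out the second gave 0.69. Each of these fits keeps 1 injured-father library, so only its size is given.

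The cAMP-specific Pde4b (ENSMUSG00000028525, chr4:102087543-102607259) and Pde4d (ENSMUSG00000021699, chr13:108449948-109953461), targets of rolipram, shape cAMP near beta-adrenergic receptors and calcium channels of the heart muscle cell. Pde4b stood at 2607 and 2225 against 2453 and 2602 CPM in cardiomyocyte-like nuclei, and atrial cardiomyocyte-like nuclei overlapped them at 2393 ± 285 CPM. B lymphocyte-like nuclei were next at 742 ± 184 CPM. Pde4d stood at 8664 and 10720 against 10120 and 8162 CPM in cardiomyocyte-like nuclei, and every one of these libraries was above every atrial cardiomyocyte-like one (2987 to 4041 CPM). The 2 classes of heart muscle therefore differed in Pde4d by 2.58 times while their levels of Pde4b were alike to within 1.03 times. The log2 ratio of Pde4d to Pde4b was 1.92 ± 0.29 in cardiomyocyte-like, 0.61 ± 0.15 in atrial cardiomyocyte-like and 2.55 ± 0.34 in endocardial-like nuclei. In the endocardial-like nuclei it was 2.77 and 2.91 with injured and 2.33 and 2.21 with uninjured fathers, without overlap. Among single genes in that class, 33.2% did not overlap either. The ratio of Pde1a to Pde1c also did not overlap in cardiomyocyte-like, pericyte-like, smooth muscle-like and vascular endothelial-like nuclei. The same held for Pde3a to Pde3b in atrial cardiomyocyte-like nuclei, and the ratios in the remaining tested classes overlapped. Pde4d did not differ detectably between father groups in cardiomyocyte-like nuclei (log2 fold change 0.10 ± 0.18, adjusted p 0.998, edgeR). Pde4b in smooth muscle-like nuclei stood at 324 and 267 against 594 and 382 CPM, lower in both injured-father libraries (-0.75 ± 0.28, unadjusted p 0.0158, adjusted p 0.936, edgeR).

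Pde1c, Pde4b and Pde4d were present at a similar low fraction of their cardiomyocyte-like level in all other tested classes outside the atrial one. Free RNA of cardiomyocytes can enter every droplet, and the 12 cardiomyocyte markers were read beside these genes. Their median level outside the cardiomyocyte classes ran from 7.87% of the cardiomyocyte-like level in fibroblast-like nuclei to 14.0% in B lymphocyte-like nuclei, with single markers between 4.21% and 40.2%. Pde1c stood at 10.6% to 22.3%, Pde4b at 10.1% to 15.8% (30% in B lymphocyte-like nuclei) and Pde4d at 10.6% to 19.3%. In fibroblast-like, vascular endothelial-like, pericyte-like, smooth muscle-like and macrophage- or monocyte-like nuclei the 3 genes lay inside the range of the markers. In endocardial-like nuclei Pde1c, at 22.3%, was above every marker, of which Tnni3 was highest at 22.2% and Myl2 next at 13.5%. Pde4d, at 19.3% there, was above every marker except Tnni3. The part of free RNA in these levels, in the ratios and in the smooth muscle-like difference of Pde4b given above was not tested. Pde3a and Pde7b stood at 118% and 56.4% in fibroblast-like and at 418% and 210% in endocardial-like nuclei, above every marker. Pde3a lay inside the marker range in vascular endothelial-like (26.5%), macrophage- or monocyte-like (27.0%) and B lymphocyte-like nuclei (28.1%). Pde7b lay inside the marker range in vascular endothelial-like (28.2%), B lymphocyte-like (21.6%) and smooth muscle-like nuclei (20.6%). In vascular endothelial-like nuclei only Tnni3 was above Pde7b. The part of free RNA in these values, and in the vascular endothelial-like difference of Pde3a, was not tested.

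**Figure D2:**
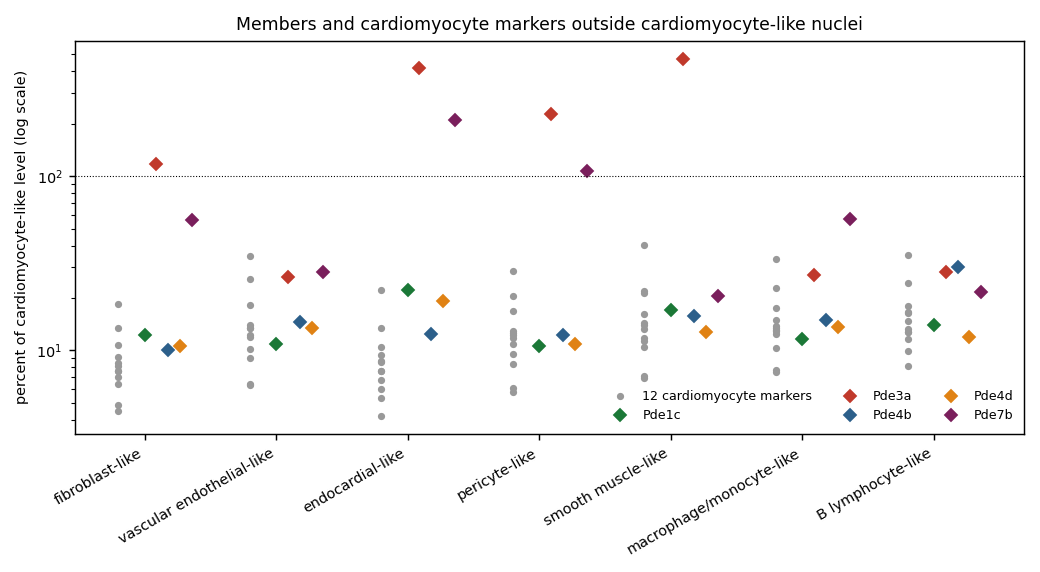
Level of 5 members (coloured diamonds) and of the 12 cardiomyocyte markers (grey points) in 7 classes of nuclei, as a percentage of the cardiomyocyte-like level (vertical axis, log scale), from means of 4 libraries. Pde1c, Pde4b and Pde4d lie among or close to the markers, while Pde3a reaches 473% in smooth muscle-like nuclei.

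The cGMP-specific Pde5a (ENSMUSG00000053965, chr3:122728947-122859374), the target of sildenafil, marked the cells of the vessel wall. It stood at 438 and 272 against 489 and 404 CPM in smooth muscle-like nuclei and overlapped pericyte-like nuclei at 300 ± 23.4 CPM. Fibroblast-like nuclei had 93.6 ± 10.4 CPM, endocardial-like nuclei 68.4 ± 2.05 CPM and cardiomyocyte-like nuclei 3.45 ± 0.857 CPM, the last from 144 UMIs in all. The level in smooth muscle-like nuclei was 116 times that in cardiomyocyte-like nuclei. Pde5a had no unadjusted p below 0.05 between father groups in any of the 7 classes in which it could be tested, with log2 fold changes between -0.34 and 0.18.

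Pde7b (ENSMUSG00000019990, chr10:20398004-20725078) and Pde8b (ENSMUSG00000021684, chr13:95024454-95250336) are cAMP-specific enzymes of families that rolipram does not inhibit. Pde7b stood at 1805 and 2037 against 1975 and 1396 CPM in endocardial-like nuclei, and Schwann- or glial-like (1649 ± 242 CPM) and lymphatic endothelial-like nuclei (1310 ± 307 CPM) overlapped them in turn. Pericyte-like (923 ± 45.2 CPM) and cardiomyocyte-like nuclei (859 ± 113 CPM) came next among the tested classes, and smooth muscle-like nuclei were lowest at 177 ± 29.6 CPM. Smooth muscle-like nuclei, highest in Pde3a, were thus 10.2 times lower in Pde7b than endocardial-like nuclei, which shared the high Pde3a. Pde7a, the other gene of that family, was highest in B lymphocyte-like nuclei (566 ± 59.4 CPM), where Pde7b was 186 ± 46.7 CPM.

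Over the tested classes, Pde8b had the largest gap of the 10 members between its highest class and the next. Pericyte-like nuclei held 1361 and 1467 CPM with injured and 1497 and 1417 CPM with uninjured fathers, 19.6 times the level of the next tested class, smooth muscle-like nuclei (73.1 ± 32.7 CPM), and 193 times that of cardiomyocyte-like nuclei (7.43 ± 1.52 CPM). Schwann- or glial-like nuclei, which were not tested, had 120.1 ± 48.2 CPM. Pde8a had its highest level in vascular endothelial-like nuclei (321.5 CPM, SD 22.25), where Pde8b stood at 15.7 ± 5.15 CPM. In pericyte-like nuclei the log2 fold change of Pde8b between father groups was -0.01 ± 0.14. In endocardial-like nuclei Pde8b had 26 and 29 UMIs with injured and 73 and 6 UMIs with uninjured fathers, that is 30.6 and 19.6 against 78.8 and 16.5 CPM. The groups overlapped, and 1 library stood apart: the log2 fold change was -1.21 ± 0.45 (unadjusted p 0.0165, adjusted p 0.831, edgeR), and 0.62 without uninjured-father library 1. In macrophage- or monocyte-like nuclei Pde8b stood at 33.9 and 31.0 against 18.2 and 14.1 CPM, from 25, 27, 13 and 5 UMIs (0.96 ± 0.41, unadjusted p 0.0387, adjusted p 0.991, edgeR).

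Pde10a (ENSMUSG00000023868, chr17:8525372-8986648) was spread over stromal and endothelial classes. Fibroblast-like (304 ± 76.5 CPM), vascular endothelial-like (295 ± 33.5 CPM), lymphatic endothelial-like (273 ± 57.2 CPM) and endocardial-like nuclei (195 ± 119 CPM) overlapped in turn, and cardiomyocyte-like nuclei were lowest at 10.3 ± 3.73 CPM. Schwann- or glial-like nuclei held 640 ± 258 CPM. Mesothelial- or epicardial-like nuclei had the highest mean, but with 4 and 2 nuclei in the uninjured-father libraries their values ran from 0 to 1637 CPM. Within the fibroblast-like nuclei, the cluster led by Gfpt2 and Hmcn2 held 543 ± 185 CPM, that led by Ccbe1 and Pcdh9 272 ± 101 CPM and that led by Abca8a and Pcdh9 189 ± 18.6 CPM. Within the vascular endothelial-like nuclei, a cluster of 320 nuclei led by St6galnac3 and Rasgrf2 had 151 ± 40.8 CPM, against 314 ± 32.6 and 268 ± 43.9 CPM in the other two.

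Of the 8 classes in which Pde10a could be tested, endocardial-like nuclei, from the lining of the chambers, had its largest father-group difference. The libraries stood at 273 and 315 CPM with injured and 133 and 60.4 CPM with uninjured fathers, from 232, 466, 123 and 22 UMIs. Both injured-father libraries were above both uninjured-father libraries, and the uninjured-father pair differed from each other by more than the injured-father pair did. The log2 fold change was 1.48 ± 0.25, with an unadjusted p of 2.38e-05 and an adjusted p of 0.0501 over the 8575 genes tested (edgeR), so the difference fell just short of the threshold of 0.05. In these nuclei 0.035% of all genes were called, 5.1% had an unadjusted p below 0.05 and 33.2% did not overlap between groups. Of the 10 members 0 were called, 2 (Pde10a and Pde8b) had an unadjusted p below 0.05, and 3 did not overlap between groups.

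The call on Pde10a in endocardial-like nuclei depended on the processing, and its direction did not in any of the 13 alternatives. These reuse the same libraries, whose groups did not overlap, so the shared direction is no separate result. It was called with other size factors (adjusted p 0.0365), with no filter on low counts (2.00e-09), with doublets kept (0.00258), with a stricter nucleus filter (0.00188), at a finer clustering (0.0308) and with phosphodiesterase genes used in the clustering (0.00874), all by edgeR. With 1 library left out at a time, the log2 fold change was 1.60 without injured-father library 1 and 1.36 without injured-father library 2. It was 2.35 without uninjured-father library 1 and 1.14 without uninjured-father library 2. These fits of 3 libraries assume that the lone library varies like the other group. Pde10a was not called with DESeq2 (1.59, adjusted p 1.0), with the replicate number as a block (1.55, adjusted p 0.303, edgeR) or when a cluster carrying endocardial and fibroblast markers together was added to the class, an alternative chosen after seeing the data (1.11, adjusted p 0.177, edgeR). That cluster of 355 nuclei, left unnamed, held 369 and 401 CPM with injured and 246 and 226 CPM with uninjured fathers.

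**Figure D3:**
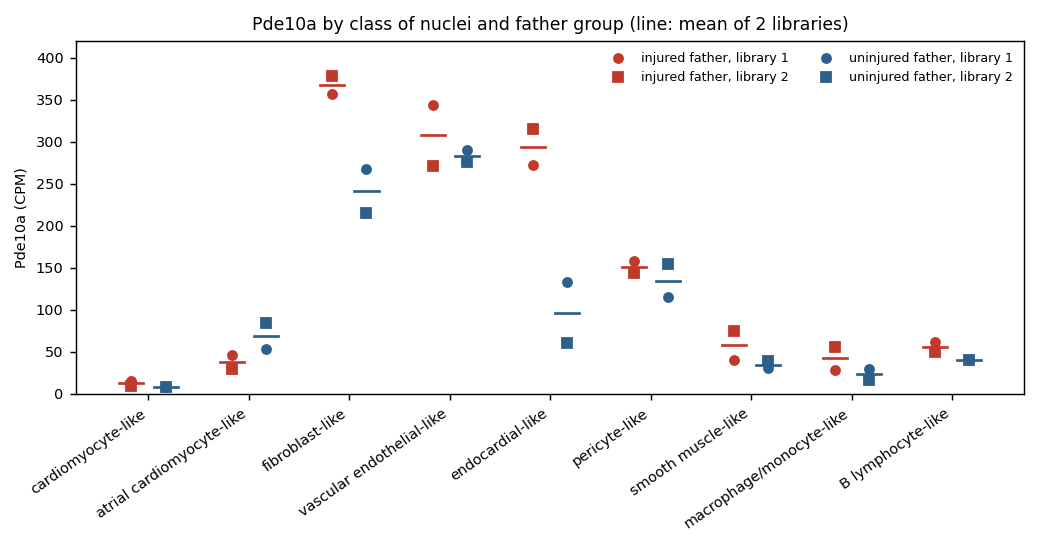
Pde10a in each tested class (vertical axis, CPM), with 1 point per library and a line at the mean of the 2 libraries of a group. In endocardial-like nuclei the injured-father libraries sit at 273 and 315 CPM and the uninjured-father libraries at 133 and 60.4 CPM. Fibroblast-like nuclei also do not overlap, while vascular endothelial-like nuclei do.

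Markers of other cell types were read in the endocardial-like nuclei, since RNA of other cells could move with the group. The 8 endocardial markers summed to 15840 and 16490 against 16650 and 13940 CPM, overlapping. Pericyte markers were lower with injured fathers (147 and 240 against 415 and 318 CPM over 9 genes), and so were smooth muscle markers (308 and 264 against 407 and 337 CPM over 7 genes, Cnn1 at 0). Fibroblast markers summed to 1305 and 1203 against 1310 and 1594 CPM over 11 genes, and cardiomyocyte markers to 4735 and 4777 against 5100 and 5730 CPM over 12 genes, both lower with injured fathers. Schwann or glial markers, of the class richest in Pde10a after the mesothelial one, stood at 270 and 282 against 434 and 373 CPM over 8 genes. Mesothelial or epicardial markers stood higher with injured fathers, at 58.8 and 52.7 against 27.0 and 32.9 CPM over 8 genes, with Krt8 and Upk1b at 0. So did T or NK lymphocyte markers, at 101 and 59.4 against 54.0 and 35.7 CPM over 9 genes, with Klrb1c and Nkg7 at 0, and adipocyte markers, at 31.7 and 16.9 against 6.48 and 16.5 CPM over 8 genes, with Lep at 0. Vascular endothelial markers overlapped, at 4775 and 4787 against 4591 and 5264 CPM over 11 genes. No marker of these lists was called in this class (edgeR), and their part in the difference of Pde10a was not tested.

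In fibroblast-like nuclei Pde10a stood at 357 and 379 against 267 and 215 CPM. The groups did not overlap, with a log2 fold change of 0.62 ± 0.15, an unadjusted p of 0.00165 and an adjusted p of 1.0 (edgeR). Without injured-father library 1 the log2 fold change was 0.67. The same order was seen inside each of the 3 fibroblast-like clusters: 547 and 793 against 477 and 353 CPM where Gfpt2 and Hmcn2 led, 321 and 385 against 219 and 162 CPM where Ccbe1 led, and 215 and 190 against 177 and 175 CPM where Abca8a led. These clusters share their libraries and are not independent. Atrial cardiomyocyte-like nuclei had the opposite order, 45.8 and 30.2 against 53.9 and 84.5 CPM, the last from 28 UMIs (-0.75 ± 0.29, unadjusted p 0.0179, adjusted p 0.492, edgeR). Cardiomyocyte-like nuclei, at 15.8 and 9.44 against 7.72 and 8.27 CPM, gave 0.66 ± 0.27 (unadjusted p 0.0336, adjusted p 0.998, edgeR). Vascular endothelial-like nuclei, at 344 and 271 against 290 and 276 CPM, overlapped and gave 0.15 ± 0.13. Over all nuclei Pde10a stood at 171 and 171 against 116 and 109 CPM (0.59 ± 0.11, unadjusted p 0.000961, adjusted p 0.228, edgeR). Cardiomyocyte-like nuclei, lowest in Pde10a, made up 20.24% and 22.73% of the injured-father libraries against 27.64% and 29.77% of the others. Vascular endothelial-like nuclei made up 23.23% and 23.35% against 19.46% and 20.42%, and fibroblast-like nuclei 22.76% and 25.1% against 25.23% and 25.87%. The part of class shares in this pooled difference was not tested. Leaving out the first or the second injured-father library gave pooled log2 fold changes of 0.61 and 0.57 for Pde10a. Each of these fits keeps 1 injured-father library, so only its size is given.

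Whether the effect on Pde10a differed between endocardial-like nuclei and each other class was tested directly, with the library as a block. The gene and the reference class were known beforehand to show a large effect in these same libraries, so the p-values of these differences are not independent support for it. The endocardial-like effect exceeded the atrial cardiomyocyte-like one by 2.18 ± 0.31 on the log2 scale (adjusted p 7.29e-09, edgeR), the vascular endothelial-like one by 1.37 ± 0.23 (adjusted p 0.0045, edgeR) and the pericyte-like one by 1.25 ± 0.23 (adjusted p 8.64e-04, edgeR). The differences from fibroblast-like (0.94 ± 0.21, adjusted p 0.139, edgeR) and cardiomyocyte-like nuclei (0.91 ± 0.31, adjusted p 0.800, edgeR) were not called. Those from B lymphocyte-like (0.84 ± 0.57), smooth muscle-like (0.77 ± 0.53) and macrophage- or monocyte-like nuclei (0.68 ± 0.41) were smaller and not called either. In smooth muscle-like nuclei alone Pde10a fell below the count filter (42 UMIs), and it entered that comparison through the endocardial-like counts. The same held for Pde3b against smooth muscle-like nuclei. It also held for Pde5a and Pde8b against B lymphocyte-like and for Pde5a against atrial cardiomyocyte-like nuclei. All 8 comparisons use the same endocardial-like counts. Of the 10 members, 1 was called against atrial cardiomyocyte-like nuclei, where 0.381% of all genes were, 1 against vascular endothelial-like nuclei (0.0549% of all genes) and 2 against pericyte-like nuclei (0.299%). The members called were 0 against cardiomyocyte-like (0.0477%), fibroblast-like (0.0505%), macrophage- or monocyte-like (0.0103%), B lymphocyte-like (0.0132%) and smooth muscle-like nuclei (0.0%). An unadjusted p below 0.05 was found for 4 of 10 members against atrial cardiomyocyte-like nuclei, beside 6.58% of all genes, for 4 against fibroblast-like (5.26%) and 4 against pericyte-like (5.55%), and for 3 against cardiomyocyte-like (4.86%), 3 against vascular endothelial-like (5.53%) and 3 against macrophage- or monocyte-like nuclei (4.6%). It was found for 1 against smooth muscle-like (6.08%) and 0 against B lymphocyte-like nuclei (3.67%). The other member called against pericyte-like nuclei, after Pde10a, was Pde8b, at -1.21 ± 0.30 (adjusted p 0.0435, edgeR), which became 0.51 without uninjured-father library 1. The call of Pde10a against pericyte-like nuclei ended without uninjured-father library 2 (0.76, adjusted p 0.999), and that against vascular endothelial-like nuclei ended without injured-father library 2 (1.06, adjusted p 0.0536). The difference from fibroblast-like nuclei was 1.57 without uninjured-father library 1, and that from cardiomyocyte-like nuclei was 1.36 without injured-father library 1. The difference from atrial cardiomyocyte-like nuclei moved from 2.18 to 3.40 without uninjured-father library 1.

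**Figure D4:**
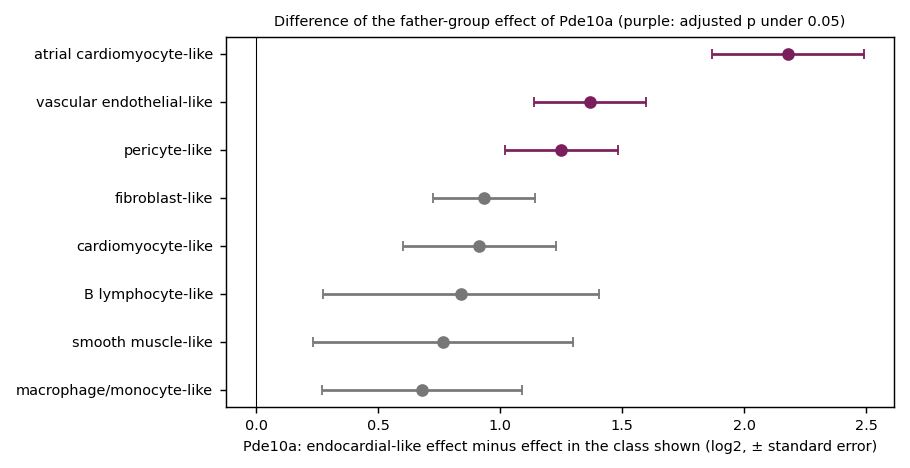
Difference between the log2 father-group effect on Pde10a in endocardial-like nuclei and that in the class named (horizontal axis), with its standard error from the edgeR interaction test. All 8 differences lie above 0, and the 3 in purple, from 1.25 to 2.18, have an adjusted p below 0.05. The reference class had the largest effect on Pde10a of the classes tested, so the shared sign is no separate result.

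Across the family, 85 of the 90 pairs of gene and class had enough counts to be tested, and 0 were called (edgeR). Pde5a in atrial cardiomyocyte-like and B lymphocyte-like nuclei, Pde8b in B lymphocyte-like nuclei and Pde3b and Pde10a in smooth muscle-like nuclei fell below the count filter. Of the 85, 43 log2 fold changes were positive and 42 negative, 14 had an unadjusted p below 0.05, and in 32 the groups did not overlap. By class, the members with an unadjusted p below 0.05 were 3 of 10 in cardiomyocyte-like nuclei, where 3.15% of all genes were, and 3 of 10 in vascular endothelial-like nuclei (5.17%). They were 2 of 9 in atrial cardiomyocyte-like (7.16%), 2 of 10 in fibroblast-like (3.05%), 1 of 8 in smooth muscle-like (4.42%) and 1 of 10 in macrophage- or monocyte-like nuclei (4.5%). They were 0 of 10 in pericyte-like (4.22%) and 0 of 8 in B lymphocyte-like nuclei (2.86%), and 2 of 10 over all nuclei (6.99%).

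Among all genes, adjusted calls made up 0.00813% in cardiomyocyte-like, 0.00801% in fibroblast-like, 0.0693% in pericyte-like, 0.697% in atrial cardiomyocyte-like and 0.101% over all nuclei, and 0.0% of those tested in smooth muscle-like, macrophage- or monocyte-like, vascular endothelial-like and B lymphocyte-like nuclei. The groups did not overlap for 5 of 10 members in cardiomyocyte-like nuclei, beside 29.4% of all genes, 3 of 10 in fibroblast-like (29.5%), 3 of 10 in vascular endothelial-like (34.5%), 6 of 10 in pericyte-like (32.7%) and 5 of 9 in atrial cardiomyocyte-like nuclei (36.3%). They did not overlap for 2 of 8 in smooth muscle-like (33.1%), 2 of 10 in macrophage- or monocyte-like (33.2%) and 3 of 8 in B lymphocyte-like nuclei (32.0%), and 7 of 10 over all nuclei (34.7%). The median log2 fold change of the members lay between -0.20 in smooth muscle-like and 0.15 in fibroblast-like nuclei, against medians between -0.01 and 0.01 over all genes tested.

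**Figure D5:**
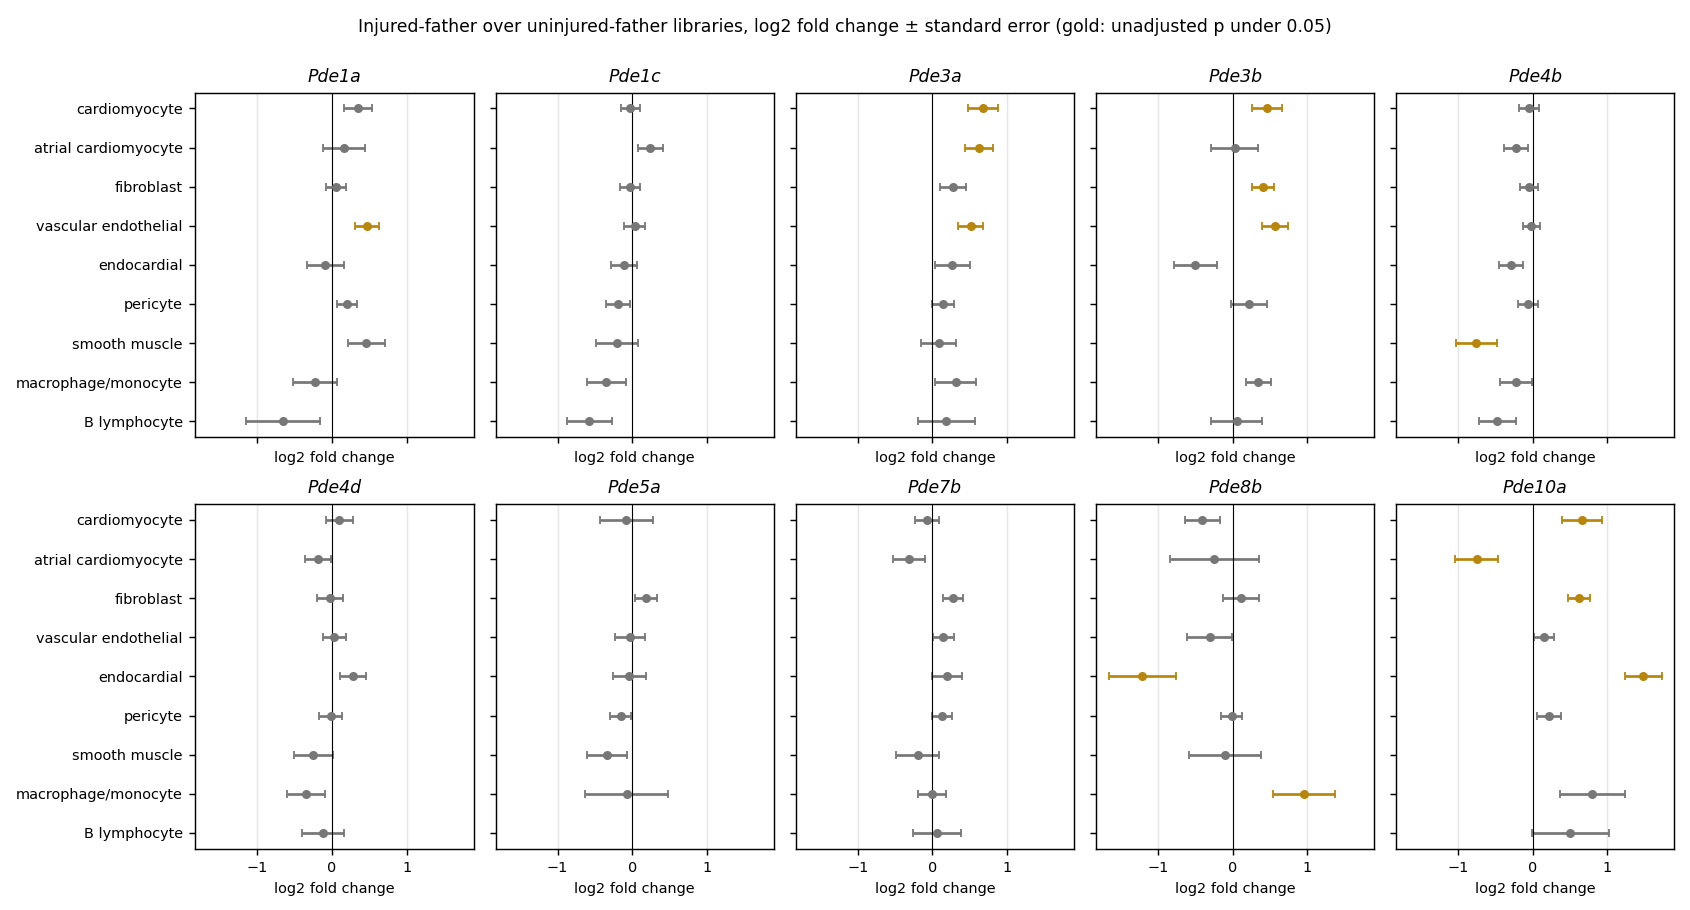
Log2 fold change of injured-father over uninjured-father libraries for each gene and tested class (horizontal axis, with the standard error from edgeR), in gold where the unadjusted p is below 0.05. Pde10a in endocardial-like nuclei, at 1.48, lies farthest from 0, and 0 of the 85 effects has an adjusted p below 0.05.

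The rest of the pathway was read from 8 lists of 87 genes that make, bind or answer to cyclic nucleotides, 82 of which could be tested in at least 1 class. Over 523 tests in the 9 classes 0 genes passed the threshold in either direction (edgeR), and 37 had an unadjusted p below 0.05, beside 2.86% to 7.16% of all genes by class. In endocardial-like nuclei the positive log2 fold changes were 4 of 6 among Gs-coupled receptors and G proteins, 2 of 6 among adenylyl cyclases, which make cAMP, 3 of 5 among guanylyl cyclases, 6 of 8 among effectors and 5 of 9 among anchoring proteins. They were 5 of 7 among transcription factors of the cAMP response, 0 of 7 among kinase targets of heart muscle and 1 of 5 among the other phosphodiesterases. Of the cardiomyocyte markers, 2 of 11 were positive in endocardial-like nuclei, with a median of -0.31. The part of free cardiomyocyte RNA in the count of kinase targets was not tested. List medians in that class lay between -0.22 and 0.19, beside -0.00214 for all its genes.

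Within each list, the gene with the smallest unadjusted p is given. Crem, a transcription factor that answers to cAMP, stood at 95.2 and 83.7 against 47.5 and 35.7 CPM in endocardial-like nuclei, without overlap (1.04 ± 0.24, adjusted p 0.260, edgeR). Gucy1a2, a subunit of the nitric oxide receptor that makes cGMP, stood at 41.1 and 53.3 against 90.7 and 68.6 CPM there (-0.76 ± 0.25, adjusted p 0.785, edgeR). Prkar2b, a regulatory subunit of protein kinase A, stood at 6.16 and 6.17 against 1.07 and 1.63 CPM in cardiomyocyte-like nuclei (2.27 ± 0.33, adjusted p 0.166, edgeR). These values came from 55, 79, 16 and 12 UMIs. Prkar2b is also among the leading genes of the adipocyte-like cluster, and the part of adipocyte RNA in this difference was not tested. Adcy5, a main adenylyl cyclase of the heart, stood at 240.2 and 217 against 307.5 and 349 CPM in cardiomyocyte-like nuclei (-0.50 ± 0.12, adjusted p 0.998, edgeR). The other lists gave Akap5 (-1.05) and Pde4c (-1.28) in vascular endothelial-like, Pln (-0.55) in atrial cardiomyocyte-like and Adrb1 (-0.83) in macrophage- or monocyte-like nuclei, with adjusted p between 0.476 and 0.991 (edgeR). Over all nuclei 2 genes of the lists were called, which were chosen after their values were seen. Adrb3, the beta-adrenergic receptor of fat cells, rose from 0.286 and 0.639 CPM to 4.97 and 4.69 CPM (3.49 ± 0.38), and Prkar2b rose from 13.1 and 11.3 CPM to 72.3 and 43.3 CPM (2.21 ± 0.24), each with an adjusted p of 0.0308 (edgeR). These pooled rises stand beside the larger share of adipocyte-like nuclei in the injured-father libraries, whose part was not tested.

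Genes with levels most like those of each member were sought over 36 points, 9 classes in each of 4 libraries, among 6456 genes. The points share libraries and classes, so the Pearson r of log2 levels is a description. Pde8b was followed most closely by Lrfn2 (0.968) and Zfp804b (0.960), both highest in pericyte-like nuclei. Pde4b was followed by Pank1 (0.971) and Art1 (0.968), Pde4d by Intu (0.943) and Rilpl1 (0.935) and Pde1c by Fign (0.952) and Macrod2 (0.948), all highest in one of the cardiomyocyte classes. Pde1a went with Gpc6 (0.964) and Serping1 (0.952) of fibroblast-like nuclei, and Pde3b with Epsti1 and Cotl1 (both 0.926) of macrophage- or monocyte-like nuclei. Pde3a went with Prkg1 (0.938), which encodes the cGMP-dependent protein kinase of smooth muscle, and Astn2 (0.925), and Pde5a with Ppp1r14a (0.947) and Cyp7b1 (0.939). Pde10a went with Srgap1 (0.928) and Plscr4 (0.919), both highest in vascular endothelial-like nuclei. Pde7b had the least close partners, Rai2 (0.759) and Mat2a (0.758). Among the members themselves the closest pair was Pde1c and Pde4d (0.924), followed by Pde1c and Pde4b (0.901) and by Pde1a and Pde5a (0.858), and the lowest value was that of Pde4b and Pde5a (-0.68).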

How the data were processed

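Nuclei of frozen hearts were sorted with a Ter119 antibody to leave out blood cells and made into 3′ droplet libraries, at a target of 10000 nuclei each, per the labels. Cell Ranger 6.0.1, named in the file headers, gave the raw UMI counts that the authors deposited, 1 matrix per heart, without normalization. Seurat 4.0 is named in the submitters' processing notes. The sources used here do not name the build used for counting. Gene positions are those of GENCODE M21 (GRCm38), which holds all 10 members, none of which overlaps another counted gene. Sequences are from RefSeq (GRCm38.p6).

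Nuclei with at least 500 UMIs, at least 300 genes and under 5% mitochondrial UMIs were kept, and doublets marked by Scrublet (scanpy 1.11.5) were removed. Over the 4 libraries, 3000 variable genes without phosphodiesterases, 30 principal components and Leiden clustering (leidenalg 0.10.2, resolution 1.0) gave 22 clusters. A cluster took the name of the marker list with the highest mean log2 fold over the median cluster (20 CPM added), with at least 3 markers raised. Clusters close to a second list, or led by cell cycle genes, stayed unnamed (507 nuclei). This naming rule, and the atrial class, were set after the clusters were seen and before any group test. Names are rebuilt here and mark likeness only.

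Counts were summed per class and library, filtered (filterByExpr, minimum count 10), scaled by TMM and tested with edgeR 4.0.16 (quasi-likelihood, two-sided, R 4.3.3), with Benjamini-Hochberg adjustment over all genes tested and a threshold of 0.05. A class needed 50 nuclei in each library. Atrial cardiomyocyte-like and B lymphocyte-like nuclei were added to the planned classes because they met this. The fits were tested on simulated data with 100 genes changed by a log2 of 1 and 100 by a log2 of 2. For endocardial-like nuclei 56 and 90 of these were called, beside 11 false calls. For fibroblast-like nuclei 80 and 89 were called, beside 15 false calls. DESeq2 1.42.0 and other settings served as alternatives. Genes most like a member were chosen by r of log2(CPM + 10) among genes of at least 50 CPM in 1 class. In each pathway list the gene of smallest p was named. The members and lists were chosen with earlier results of these data known.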

Additional observations from a re-analysis of the deposited data

Results flagged for a closer look

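In 4 cases a member's father-group effect in endocardial-like nuclei differed from its effect in another class by a test of the difference itself (edgeR, injured-father minus uninjured-father, log2). The large endocardial-like effect on Pde10a was known from these libraries beforehand, so its p-values here are not independent support. For Pde10a the endocardial-like effect exceeded that in atrial cardiomyocyte-like nuclei by 2.18 (adjusted p 7.29e-09), that in vascular endothelial-like nuclei by 1.37 (adjusted p 0.0045) and that in pericyte-like nuclei by 1.25 (adjusted p 8.64e-04). The sign of Pde10a was positive in endocardial-like (1.48) and negative in atrial cardiomyocyte-like nuclei (-0.75), although neither effect was called alone. For Pde8b the endocardial-like effect lay below the pericyte-like one (-1.21, adjusted p 0.0435), with 73 of its 134 endocardial-like UMIs in uninjured-father library 1.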

How the results depend on the processing

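Counts of members called, 0 in every class above, rose to 1 with no filter on low counts in cardiomyocyte-like, fibroblast-like and vascular endothelial-like nuclei and to 2 in endocardial-like and all nuclei. In endocardial-like nuclei the count was 1 with DESeq2's size factors in edgeR, doublets kept, the stricter nucleus filter (1000 UMIs, under 1% mitochondrial), resolution 2.0 and phosphodiesterase genes kept in clustering. Over all nuclei it was 2 with DESeq2 and 2 with the replicate block. With 1 library left out the counts ran from 1 to 2 in endocardial-like, 0 to 2 in all nuclei and 0 to 1 in fibroblast-like, macrophage- or monocyte-like and vascular endothelial-like nuclei. For differences from the endocardial-like effect, these ranges were 0 to 1 against cardiomyocyte-like, fibroblast-like and macrophage- or monocyte-like nuclei, 0 to 2 against vascular endothelial-like nuclei and 0 to 2 against pericyte-like nuclei. Against pericyte-like nuclei the count, 2, became 1 with DESeq2's size factors, doublets kept or resolution 2.0 and 0 with the stricter filter, and against fibroblast-like nuclei, with no filter, it became 1. All genes called in endocardial-like nuclei also rose with no filter, with the stricter filter and with 1 library left out, as given below. For the other classes and for the differences, the share of all genes called under these settings is not given. These counts are therefore no result about the members. The cause was not tested.

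Without uninjured-father library 1, Pde8b reversed in endocardial-like nuclei (0.62) and in its difference from pericyte-like nuclei (0.51). With 1 library left out these ran from -1.71 to 0.62 and from -1.65 to 0.51. The difference of Pde10a from atrial cardiomyocyte-like nuclei was not called at resolution 2.0 (1.55, adjusted p 0.138, edgeR). Single effects are followed where the main unadjusted p was below 0.05, a choice made after the values were seen, as were the alternatives for levels and for the atrial and mixed clusters. Among the 79 effects with a main p of 0.05 or more, 31 of 622 alternative values and 70 of 316 values with 1 library left out changed sign. Among the 16 others, counting all nuclei, 0 of 129 and 1 of 64 did. These 16 were picked by their p in the same counts, so fewer sign changes among them are no separate result. All genes called in endocardial-like nuclei numbered 3, and 46 with no filter, 21 with the stricter filter and 29 to 67 with 1 library left out. Levels moved by more than 1 SD for Pde1c (1021 CPM) and Pde4b (2285 CPM) with doublets kept and Pde8b (1524 CPM) with the stricter filter, of 80 values.

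Replicate numbers come from titles and pair nothing stated. Same-numbered libraries deviated together with r between -0.02 and 0.09. With the replicate block, Pde10a in endocardial-like nuclei had 1.55 (adjusted p 0.303, edgeR), and Pde3b (0.78, adjusted p 0.00557) and Pde10a (0.59, adjusted p 0.0254) were called over all nuclei. The part of class shares in these pooled calls was not tested. Depth limits low members most: uninjured-father library 2 held 22 UMIs of Pde10a and 6 of Pde8b in endocardial-like nuclei.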
